A study of Mus musculus with 12 samples.

Results

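The interferon-stimulated effector genes described here are 41 genes, chosen by symbol from a list of known interferon targets, of the 56691 genes in each table. The choice was made with earlier results of these data known. All 41 symbols were found once. Of these, 38 passed the filter on low counts, as did 17335 genes in all, and Ccl5, Cxcl10 and Oas3 did not. RNA was sequenced from the microdissected palatal shelves of mouse embryos at gestational day 12, the tissue that later forms the roof of the mouth. There were 12 libraries in 4 groups of 3: untreated wild-type embryos (control), untreated embryos labelled DNMT1 KO from conditional knockout animals (knockout), wild-type embryos exposed to 5-aza-2'-deoxycytidine (AzadC), and wild-type embryos given the vehicle of that drug (vehicle). Each library came from a pool of 2 embryos of 1 genotype, and the labels do not say which litters went into which pool, so that p-values measure the spread between these pools. Dnmt1 encodes the enzyme that copies DNA methylation to new strands, and AzadC is a cytidine analogue that traps it. The Cre driver, the deleted exons, the strain, and the dose, route and time of AzadC are not stated in these sources.

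Interferons are secreted proteins that bind receptors on the cell surface. The receptors activate JAK kinases, and STAT2, one of the proteins these phosphorylate, acts with IRF9 in a complex that enters the nucleus and binds the interferon-stimulated response element (ISRE) before its target genes. The targets bind viral RNA, degrade it, block viral assembly and budding, or attach the ubiquitin-like protein ISG15 to other proteins. Loss of DNA methylation is known in other cells to let retroviral repeats be transcribed, and the RNA sensors that detect them can switch on the same genes.

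The Dnmt1 transcript was at 258 to 286 CPM (library-scaled counts, TMM) in the control libraries and 179 to 201 CPM in the knockout libraries. On the log2 scale the change was -0.52, with an SE of 0.07 (edgeR adjusted p = 0.000369). It was at 448 to 452 CPM in the vehicle libraries, above all control libraries, and at 408 to 482 CPM in the AzadC libraries. All 12 markers of palatal mesenchyme were detected. Depth ran from 12640536 to 33113790 expected counts per library. Because vehicle and control differed in Dnmt1 itself, by 0.72 on the log2 scale (SE 0.07, edgeR adjusted p = 0.000286), the knockout is given against both.

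Control 1 and vehicle 1 stood apart from the other libraries of their groups in these genes, and these libraries are named beside the results they decide. Vehicle 1 had the highest CPM of its group for 35 of the 41 members, and control 1 for 29. In vehicle 1, 16 of the 38 tested members were at least 2-fold above both other vehicle libraries, against 1.36% of all genes tested. In control 1 this held for 11 members, against 2.11% of all genes. The summed CPM of 20 macrophage markers was also higher there, at 136 in control 1 against 96.0 and 99.3 in the other controls, and at 152 in vehicle 1 against 123 and 124. Control 1 was the deepest library and vehicle 1, at 15997977 counts, among the shallower ones. The part of these differences in the results was not tested.

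The sequences that bear on interferon control are shown first. They show which members match the ISRE core close to their start, and which pairs are identical around it. RefSeq promoters (build GRCm38.p6) were available for 29 of the 41 members, at 33 start sites. The ISRE core searched was GAAANNGAAA on either strand, in the 250 bases before the start. Only this exact string was searched, so a window without it is not shown to lack the element. It stood in 14 of the 33 windows (42.4%), those of Bst2, Cxcl10, Gbp2, Gbp3, Ifit1, Ifit3, Ifit3b, Isg15, Oas1a, Oas1g, Oas3, Rsad2, Stat2 and Trim30a, against 2.98% of all 32851 promoter windows of that length. The gamma-activated site core TTCNNNGAA, which reads the same on both strands, stood in 3 windows (9.09%), those of Bst2, Ifit2 and Oas1a, against 7.02% of all. In the windows below, 5′ to 3′ on the gene's strand, capitals mark the ISRE core; on the opposite strand it reads as the reverse complement, and in Isg15, Bst2, Oas1a and Oas1g 2 or more cores overlap.
Isg15, chr4:156200846-156200925, minus strand: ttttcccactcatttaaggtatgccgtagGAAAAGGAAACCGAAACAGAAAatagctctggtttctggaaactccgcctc
Bst2, chr8:71537555-71537634, minus strand: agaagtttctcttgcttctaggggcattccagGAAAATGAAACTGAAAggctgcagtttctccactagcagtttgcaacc
Gbp2, chr3:142620569-142620648, plus strand: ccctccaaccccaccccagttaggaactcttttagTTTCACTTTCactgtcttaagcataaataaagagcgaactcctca
Ifit3, chr19:34583355-34583434, plus strand: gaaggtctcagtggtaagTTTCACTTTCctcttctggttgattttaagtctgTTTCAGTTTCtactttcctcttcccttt
Ifit3b, chr19:34607751-34607830, plus strand: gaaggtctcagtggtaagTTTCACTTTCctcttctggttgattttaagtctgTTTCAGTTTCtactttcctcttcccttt
Oas1a, chr5:120907526-120907577, minus strand: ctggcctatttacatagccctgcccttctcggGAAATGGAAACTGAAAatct
Oas1g, chr5:120887614-120887663, minus strand: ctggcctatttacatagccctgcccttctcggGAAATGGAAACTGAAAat

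The Ifit3 and Ifit3b windows printed above were identical at 80 of 80 bases, and those of Oas1a and Oas1g at 50 of 50. Over the longer upstream stretch, aligned without gaps, Ifit3 and Ifit3b were identical at 188 of 218 bases (86.2%). For Oas1a and Oas1g this was 158 of 248 (63.7%). The expected counts of these 4 genes were rarely whole, because reads that fit several genes were divided between them. They were whole in 1 of 12 libraries for Ifit3 and Ifit3b and in 3 for Oas1a and Oas1g. The same holds for Gvin1 (0 libraries whole), Trim30a and Herc6 (1), Ifi204 (2) and Phf11d (4), so each of these values is uncertain as that of a single gene. Parp9 and Dtx3l overlap on opposite strands and were whole in 5 libraries; without a stated strand setting their reads cannot be told apart.

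CG dinucleotides, the sites that Dnmt1 maintains, were few in most of these promoters. The median over the 33 windows was 3 CGs in 250 bases, against 6 over all promoters. Parp12 had the most, with 41, followed by Stat2 with 14, while Lgals3bp and Phf11d had 2 each and no ISRE core. The 100 bases before the start of these 3 genes follow, with CG in capitals, because Lgals3bp and Phf11d were called in the knockout in every fit made, and Parp12 was among the members with the smallest p in the AzadC comparison. No methylation was measured in these libraries.
Parp12, chr6:39118350-39118449, minus strand: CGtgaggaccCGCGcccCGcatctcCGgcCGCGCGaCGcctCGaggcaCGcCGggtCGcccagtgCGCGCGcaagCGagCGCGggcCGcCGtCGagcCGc
Lgals3bp, chr11:118401960-118402059, minus strand: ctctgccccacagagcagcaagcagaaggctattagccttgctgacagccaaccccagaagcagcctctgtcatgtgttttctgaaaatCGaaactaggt
Phf11d, chr14:59365491-59365590, minus strand: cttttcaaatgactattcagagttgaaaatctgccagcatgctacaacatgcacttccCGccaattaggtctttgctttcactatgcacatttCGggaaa

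Per length, in the deposited TPM (RSEM's length-scaled transcript measure), most members were low. In the control libraries only Irf9, Stat2, Ifi27, Bst2 and Ifit2 had a mean above 10 TPM, from 19.7 ± 2.73 (SD, n = 3) for Irf9 to 10.7 ± 1.81 for Ifit2. Irf9 and Stat2 encode a DNA-binding and a transactivating subunit of the complex that binds the ISRE, and Ifit2 binds RNA. The neighbours Irf9, Stat2 (19.7 ± 2.85) and Ifi27 (17.6 ± 2.43) did not differ beyond their spread. At the other end were Ifit3b (0.0933 ± 0.0862), Oas3 (0.0133 ± 0.0115) and Ccl5, at 0 in all control libraries. Under AzadC the order was led by Bst2, a membrane protein that tethers budding virus, at 34.7 ± 4.80 TPM, and Ifi27, at 30.1 ± 17.7, which did not differ beyond their spread. Stat2, Irf9 and Ifit2, which passed in no comparison, made up 34.2% to 60.4% of the members' summed CPM; a sum over members is therefore weighted to these 3.

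A member level was computed for each library, as the mean over the 41 genes of log2(CPM + 0.5) centred on the 12 libraries. It was -0.01, -0.76 and -0.40 in control 1, 2 and 3, and 0.00, 0.20 and -0.01 in the knockout libraries. In vehicle 1, 2 and 3 it was 0.17, -0.74 and -0.64, and under AzadC it was 0.79, 0.75 and 0.66. The AzadC libraries were thus above the other 9 libraries, while the knockout libraries lay above all control libraries, with control 1 closest, and vehicle 1 lay above knockout 1 and 3. The members varied more between replicates than other genes did: their median SD of log2 level was 0.458 in control and 0.511 in vehicle, against 0.154 and 0.139 over all genes tested, but only 0.222 in knockout and 0.204 under AzadC. The heat map of members by library shows these patterns.

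**Figure D1:**
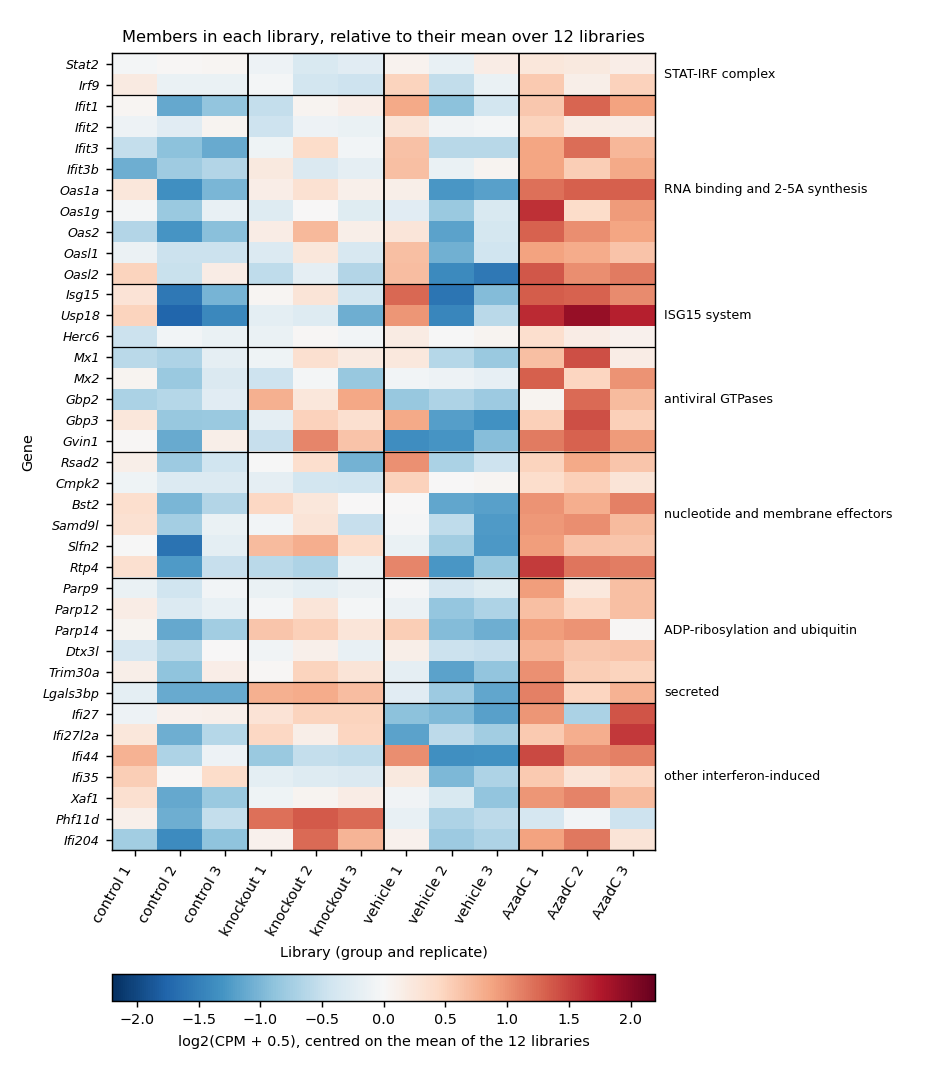
Heat map of log2(CPM + 0.5) of the 38 tested members (rows, grouped by role) in the 12 libraries (columns), each row centred on its mean over the libraries. Vehicle 1 and control 1 are redder than the other libraries of their groups, the AzadC libraries are red for nearly all rows, and Phf11d is red in the knockout alone.

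In the knockout against the control, 6 of the 38 tested members rose and 0 fell by edgeR's quasi-likelihood test, where 7.83% of all genes tested rose and 6.43% fell. The 6 were Lgals3bp, Ifi204, Phf11d, Gbp2, Oas2 and Ifit3b. All 3 knockout libraries lay above all 3 control libraries for 11 members, and below them for Ifi35 and Stat2, where 16.8% and 15.1% of all genes did so. The median log2 change of the 38 members was 0.47, against -0.00 for all genes. Without control 2 the test called 3 members, and without control 1 it called 8, where 4.95% and 6.94% of all genes rose. Without both control 1 and vehicle 1, chosen here for their high member levels, which lowers the baseline by construction, it called 14 of 39 (6.87% of all genes). Only 3, Lgals3bp, Ifi204 and Phf11d, were called whichever single library of the comparison was left out. With the replicate number as a block the count was again 6, with Parp14 in place of Ifit3b (log2 change 1.19, edgeR adjusted p = 0.0409), where 7.08% of all genes rose.

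Among the RNA-binding and oligoadenylate synthase genes, 2 of 9 rose. Oas2, at chr5:120730333-120749853 (mm10, GENCODE M21), makes the oligoadenylate that activates RNase L, the nuclease that cuts viral and cellular RNA. Its CPM was 0.596, 0.191 and 0.399 in the control libraries, 1.41, 2.31 and 1.36 in the knockout, 1.55, 0.257 and 0.806 in the vehicle and 3.70, 2.97 and 2.60 under AzadC. The knockout was above every control library, but not above vehicle 1. The log2 change from control was 2.06 (SE 0.56, edgeR adjusted p = 0.0255), and the call was lost without control 2 (adjusted p = 0.101), control 3 (0.0589) or knockout 2 (0.106). Ifit3b, a copy of the IFIT family that recognises foreign RNA ends, was at 0, 0.115 and 0.171 CPM in the control, 0.730, 0.344 and 0.414 in the knockout, 1.18, 0.450 and 0.605 in the vehicle and 1.42, 1.03 and 1.37 under AzadC. Control stood below all other groups, on 6 counts in all. Its log2 change was 2.53 (SE 0.76, edgeR adjusted p = 0.041), 2.46 with the replicate number as a block (adjusted p = 0.0673), and it was lost without control 1 (0.0993), control 2 (0.091) or any 1 knockout library (0.0641 to 0.147). The other 7 ran from a log2 change of -0.66 for Oasl2 to 1.24 for Ifit3, which missed the threshold (SE 0.43, edgeR adjusted p = 0.0761).

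Of the 5 antiviral GTPases 1 rose. Gbp2, at chr3:142620602-142638008, is a guanylate-binding protein that coats pathogen vacuoles. It was at 0.119, 0.153 and 0.342 CPM in the control, 1.23, 0.688 and 1.30 in the knockout, 0.0618, 0.128 and 0.0806 in the vehicle and 0.551, 1.88 and 1.14 under AzadC. Knockout and AzadC libraries were all above all control and vehicle libraries. The log2 change in the knockout was 2.46 (SE 0.57, edgeR adjusted p = 0.0113), with adjusted p = 0.0517 without control 1 and 0.0578 without control 2. Mx1, Mx2, Gbp3 and Gvin1 did not pass, with log2 changes from -0.15 for Mx2 to 1.29 for Mx1. Mx2 is annotated as a polymorphic pseudogene.

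The remaining calls fell on a secreted protein and on 2 nuclear proteins. Lgals3bp, at chr11:118392751-118402092, encodes a secreted glycoprotein that binds galectins. Its CPM was 4.38, 2.10 and 2.11 in the control, 9.17, 9.44 and 8.53 in the knockout, 4.27, 2.76 and 2.06 in the vehicle and 11.7, 7.32 and 9.14 under AzadC. Control 1 and vehicle 1 were again the highest of their groups, and still below every knockout and AzadC library. The log2 change was 1.64 (SE 0.31, edgeR adjusted p = 0.0038). Ifi204, at chr1:173747293-173766943, is a DNA-binding protein of the PYHIN family. It was at 1.04, 0.498 and 0.912 CPM in the control, 2.28, 5.70 and 3.91 in the knockout, 2.29, 0.995 and 1.13 in the vehicle and 4.33, 5.33 and 2.67 under AzadC. Vehicle 1 reached the lowest knockout library. The log2 change from control was 2.27 (SE 0.45, edgeR adjusted p = 0.0045).

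Phf11d, at chr14:59347407-59365470, a PHD finger gene, was high in the knockout libraries alone. It was at 1.07, 0.191 and 0.513 CPM in the control and 2.87, 3.24 and 2.96 in the knockout. In the vehicle it was at 0.804, 0.417 and 0.484, and under AzadC at 0.630, 0.908 and 0.567. The 3 knockout libraries were above the other 9, and Phf11d was the 1 tested member for which all knockout libraries exceeded all AzadC libraries, while 28 members had the reverse order; over all genes these orders held for 15.9% and 14.3%. The log2 change was 2.30 (SE 0.48, edgeR adjusted p = 0.00605) from control and 0.33 (SE 0.52, edgeR adjusted p = 0.962) for AzadC from vehicle; the difference of these 2 effects, 1.97 (SE 0.70), missed the threshold (edgeR adjusted p = 0.129).

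In the other roles no member passed in the knockout against the control: 0 of the STAT-IRF pair, 0 of 3 of the ISG15 system, 0 of 6 nucleotide and membrane effectors and 0 of 5 ADP-ribosylation and ubiquitin genes. Slfn2, a Schlafen gene, came closest, with a log2 change of 1.28 (SE of 0.45, edgeR adjusted p = 0.0764). Stat2 and Irf9, the partners needed for the response, had log2 changes of -0.24 (SE 0.09) and -0.27 (SE 0.22). Usp18, which removes ISG15 and dampens the receptor, had a log2 change of 0.01 with an SE of 1.06. It ranged from 0.0383 to 2.03 CPM in the control libraries and from 0.161 to 3.03 CPM in the vehicle libraries. The fit estimates the spread from all 12 libraries.

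**Figure D2:**
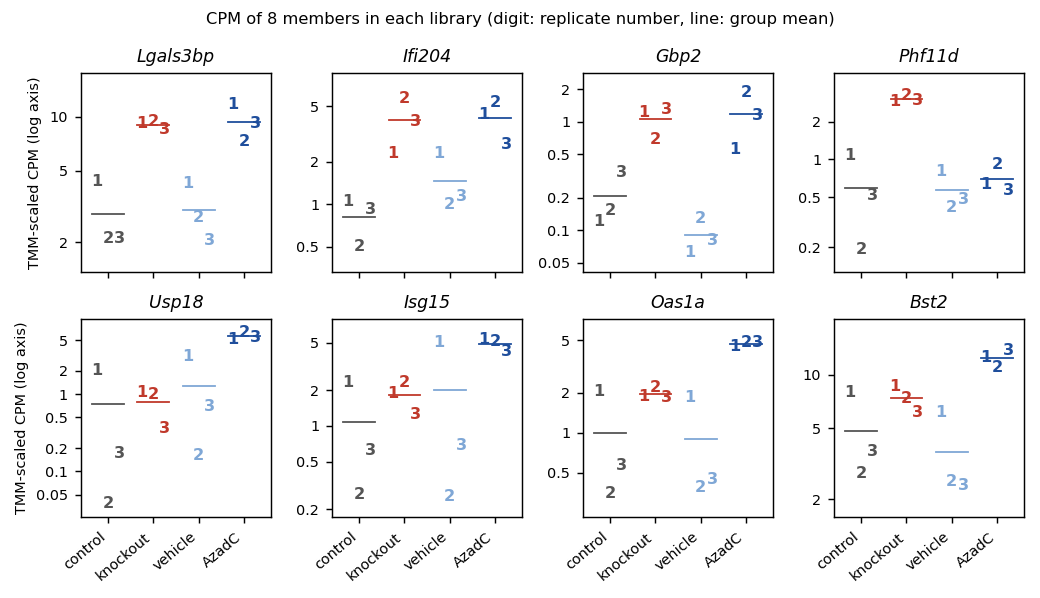
TMM-scaled CPM (log axis) of 8 members in each library, with the replicate number as the symbol and a line at the group mean. Top row, members that rose in the knockout; bottom row, members for which control 1 and vehicle 1 lie far above the other libraries of their groups, such as Usp18 at 3.03 CPM in vehicle 1 against 0.161 and 0.685.

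Set against the vehicle, 7 of the 38 tested members rose in the knockout and 0 fell, where 6.7% of all genes rose and 4.13% fell. These 7 were Gbp2, Lgals3bp, Phf11d, Gvin1, Ifi27, Ifi204 and Slfn2. All 3 knockout libraries lay above all 3 vehicle libraries for 10 of the tested members (15.9% of all genes), Ifi204 not among them. They lay below them for Cmpk2 and Ifit2 (14.5%). The median log2 change was 0.43. Both baselines are compared with the same 3 knockout libraries, so the 4 members called against both (Gbp2, Ifi204, Lgals3bp and Phf11d) are not independent calls. Gbp2 had a log2 change of 3.42 (SE of 0.62, edgeR adjusted p = 0.00325) from the vehicle, on 7 vehicle counts in all. Lgals3bp had 1.60 (SE 0.32, edgeR adjusted p = 0.00535) and Phf11d 2.45 (SE 0.49, edgeR adjusted p = 0.00574), and these 3 were called whichever single library was left out. Ifi204 had 1.46 (SE 0.43, edgeR adjusted p = 0.044), which was lost in 4 of the 6 such fits (adjusted p 0.088 to 0.209, without knockout 2 or 3 or vehicle 2 or 3). This call was also lost with only the groups compared (edgeR adjusted p = 0.0578) and with the replicate number as a block (0.0636).

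Gvin1, Ifi27 and Slfn2 were called from the vehicle and not from the control, and none of the 3 passed in vehicle against control (edgeR adjusted p = 0.152, 0.114 and 0.808). Gvin1, at chr7:106156556-106215326, encodes a very large interferon-inducible GTPase. It was at 2.62, 0.919 and 2.85 CPM in the control, 1.64, 5.95 and 4.20 in the knockout, 0.680, 0.738 and 1.09 in the vehicle and 6.22, 7.02 and 5.34 under AzadC. The control libraries overlapped the knockout, and the vehicle libraries did not. Its log2 change from vehicle was 2.21 (SE 0.48, edgeR adjusted p = 0.00977), with adjusted p = 0.0563 without knockout 2. By limma-voom the call was lost as well (adjusted p = 0.0533). Ifi27, at chr12:103434211-103440239, encodes a small mitochondrial membrane protein. It was at 5.06, 5.89 and 5.99 CPM in the control, 6.93, 7.96 and 7.93 in the knockout, 2.72, 2.57 and 2.14 in the vehicle and 11.3, 3.21 and 15.2 under AzadC. All vehicle libraries were below all others, and AzadC 2 was apart from the other AzadC libraries. The log2 change of the knockout was 1.62 from the vehicle (SE 0.40, edgeR adjusted p = 0.0185), lost without knockout 2 (adjusted p = 0.0606), vehicle 2 (0.0548) or vehicle 3 (0.0824), and 0.43 from the control (SE 0.38, edgeR adjusted p = 0.505). The Ifi27 call from the vehicle was also lost by limma-voom (adjusted p = 0.0633).

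Slfn2, at chr11:83065112-83070678, was at 2.92, 0.612 and 2.45 CPM in the control, 5.06, 5.51 and 3.97 in the knockout, 2.60, 1.51 and 0.927 in the vehicle and 5.99, 4.78 and 4.74 under AzadC. Knockout and AzadC libraries were all above all control and vehicle libraries. Its log2 change from the vehicle was 1.56 (SE 0.46, edgeR adjusted p = 0.0454), and it was lost without any 1 knockout library (adjusted p 0.0639 to 0.14), without vehicle 2 (0.121) or without vehicle 3 (0.17). Without vehicle 1, 14 of 39 members tested were called higher in the knockout against the vehicle (5.48% of all genes). Without both control 1 and vehicle 1 there were 15 of 39 (5.64%). Vehicle 1 had the highest member level of its group, so leaving it out lowers the baseline by construction. Without knockout 2 there were 3 of 39 (4% of all genes). Without vehicle 2 there were 4 (5.49%), with Stat2 called lower (2.68%).

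AzadC against the vehicle gave 0 calls among the 38 tested members in either direction by edgeR, where 0.00577% of all genes rose and 0.00577% fell, 1 gene each. The direction and separation of the members differed from this. All 38 had a log2 change above 0, against 48.6% of all genes, with a median of 1.46 against -0.00. The members were chosen with earlier results of these data known. The shares set against all genes here therefore describe the members and are not independent support. At an unadjusted p below 0.05, 25 members were higher, against 3.89% of all genes, and 0 were lower, against 2.49%. DESeq2 took in all 41 members, and 27 of them were higher at an unadjusted p below 0.05, against 2.34% of all genes. By limma-voom 32 of 38 were higher, against 3.78%. For 24 members all 3 AzadC libraries lay above all 3 vehicle libraries, against 6.1% of all genes, and for 0 below, against 5.76%. Above vehicle 2 and vehicle 3 alone this held for 37 members, against 10.8% of all genes, and above vehicle 1 for 25, against 26.1%. DESeq2 called 13 members higher (0.44% of all genes), limma-voom 0, and edgeR without a filter on low counts 16 of all 41 (0.33%). Without vehicle 1 edgeR called 5 of 39 members tested (0.0892% of all genes), and without AzadC 2 it called 1 of 38 (0.00558%). Without both control 1 and vehicle 1, chosen for their high member levels, it called 13 of 39 (0.186%). Vehicle 1 had the highest member level of its group, so a fit without it has a lower baseline by construction.

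The smallest p-values belonged to Parp12, Gbp2 and Gvin1, which shared an adjusted p of 0.0979, each with all AzadC libraries above all vehicle libraries. Parp12, at chr6:39086410-39118349, is an ADP-ribosyltransferase that blocks viral translation and carries the CG-rich promoter shown above. It was at 9.56, 6.78 and 7.53 CPM in the control, 8.17, 10.3 and 8.23 in the knockout, 7.67, 4.46 and 5.08 in the vehicle and 13.7, 11.8 and 13.8 under AzadC. The AzadC libraries were above the other 9. Its log2 change from vehicle was 1.21 (SE 0.21, edgeR adjusted p = 0.0979), and over the other settings the adjusted p ran from 5.8e-05 by DESeq2 to 0.503. Gbp2 had a log2 change of 3.58 (SE 0.62) and Gvin1 of 2.87 (SE 0.48), both with edgeR adjusted p = 0.0979.

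The members of the AzadC comparison described next were chosen after their values were seen. In the ISG15 system, Usp18 was at 3.03, 0.161 and 0.685 CPM in the vehicle and 5.12, 6.29 and 5.41 under AzadC. Isg15, the ubiquitin-like modifier itself, was at 5.01, 0.257 and 0.685 CPM in the vehicle and 5.28, 5.14 and 4.20 under AzadC. Vehicle 1 thus reached the AzadC range for Isg15 and lay between the other vehicle libraries and AzadC for Usp18. Their log2 changes of 1.38 (SE 0.83, edgeR adjusted p = 0.869) and 2.21 (SE 0.95, edgeR adjusted p = 0.772) did not pass. Without both control 1 and vehicle 1, chosen for their high levels, they were 3.38 (edgeR adjusted p = 0.0225) and 3.76 (edgeR adjusted p = 0.0403). Herc6, the ligase that attaches ISG15 in mice, had the smallest difference of all 38, a log2 change of 0.15 (SE 0.17).

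Among the RNA-binding and oligoadenylate synthase genes the median log2 change under AzadC was 1.45, from 0.23 for Ifit2 to 3.27 for Oas1g. Oas1a was at 1.85, 0.385 and 0.443 CPM in the vehicle, 2.06, 0.344 and 0.570 in the control, 1.87, 2.21 and 1.83 in the knockout and 4.49, 4.84 and 4.84 under AzadC. The AzadC libraries were again above the other 9 and close to one another. The log2 change from vehicle was 2.49 (SE 0.62, edgeR adjusted p = 0.343). Among the nucleotide and membrane effectors the median was 1.52. Bst2 was at 6.12, 2.50 and 2.38 CPM in the vehicle and 12.5, 11.0 and 13.8 under AzadC, 1.80 higher on the log2 scale (SE 0.40, edgeR adjusted p = 0.22), and it passed without vehicle 1 (edgeR adjusted p = 0.0469). The 5 GTPases had a median of 1.96 and the 5 ADP-ribosylation and ubiquitin genes 1.09, and no member of either passed. The STAT-IRF pair had 0.18 for Stat2 and 0.43 for Irf9.

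Where RefSeq gave a promoter, the 12 tested members with the ISRE core had a median log2 change under AzadC of 1.42, and the 15 without it 1.21. In the knockout against the control these medians were 0.68 and 0.16, with 2 calls in each set. The ranges overlapped widely, from -0.24 to 2.53 with the core and from -1.15 to 2.30 without it.

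**Figure D3:**
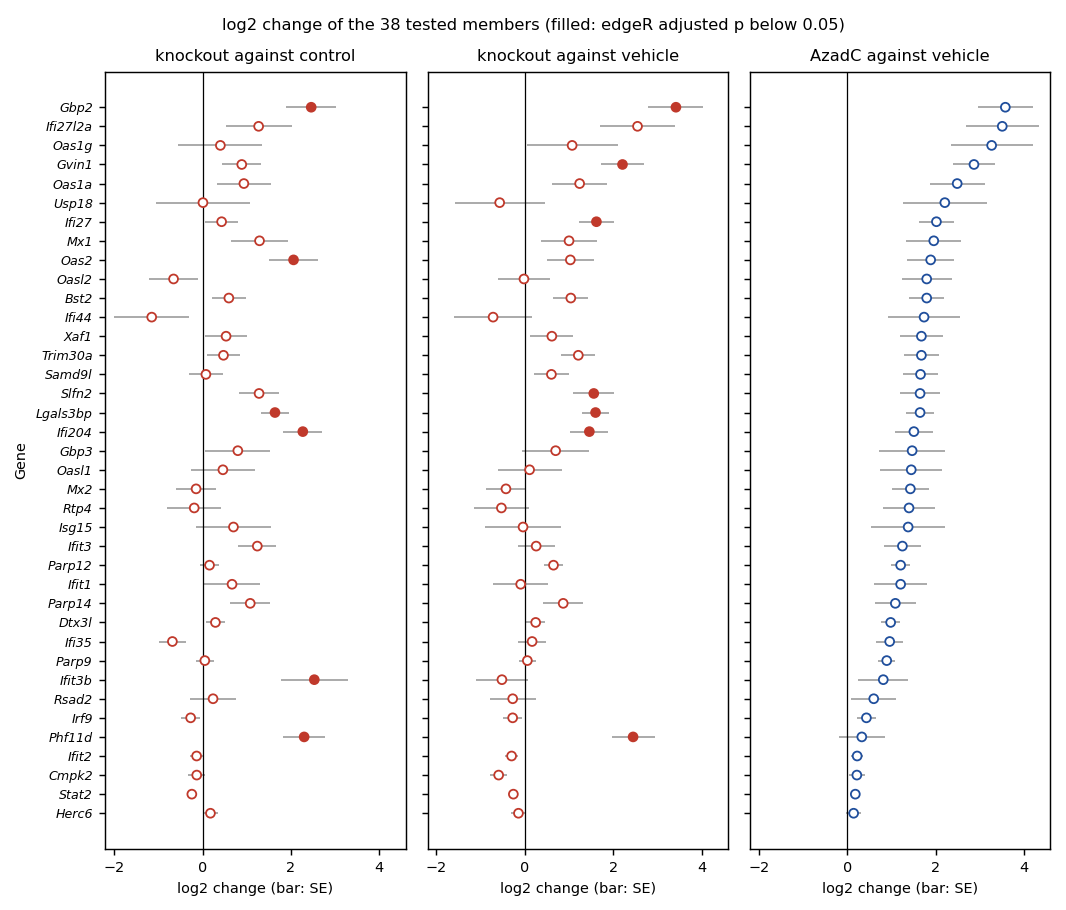
log2 change of the 38 tested members (points, with SE bars) in the knockout against the control, the knockout against the vehicle and AzadC against the vehicle, sorted by the last; filled points have an edgeR adjusted p below 0.05. All AzadC points lie above 0, none is filled, and the filled knockout points include Phf11d, which is near 0 for AzadC.

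With the control libraries as the baseline for AzadC, an alternative chosen after seeing the data, 8 members rose and 0 fell, where 0.883% of all genes rose and 0.946% fell. They were Lgals3bp, Ifit3b, Oas2, Ifi204, Ifit3, Dtx3l, Gbp2 and Parp9, with log2 changes from 0.89 (SE 0.20, edgeR adjusted p = 0.0369) for Parp9 to 3.86 (SE 0.72, edgeR adjusted p = 0.0212) for Ifit3b. All AzadC libraries were above all control libraries for 33 members, against 10.7% of all genes. The median log2 change was 1.45. Ifit3, an IFIT family member, was at 1.19, 0.804 and 0.627 CPM in the control, 1.78, 2.704 and 1.83 in the knockout, 3.28, 1.09 and 1.09 in the vehicle and 3.94, 5.21 and 3.50 under AzadC. Dtx3l, a ubiquitin ligase, was at 4.47, 3.71 and 5.93 CPM in the control, 5.57, 6.39 and 5.21 in the knockout, 6.49, 4.11 and 4.03 in the vehicle and 10.2, 9.14 and 9.34 under AzadC. Its partner Parp9 was at 5.96, 4.78 and 6.33 CPM in the control, 5.93, 5.70 and 6.04 in the knockout, 6.55, 5.07 and 5.44 in the vehicle and 12.99, 7.87 and 10.8 under AzadC. For these 3 genes the AzadC libraries were above the other 9. Untreated controls did not receive the vehicle, so drug and vehicle cannot be told apart here.

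Vehicle against control is the measure of what the vehicle group differs by without the drug. Of the 38 members 1 was higher, where 1.46% of all genes rose, and 0 were lower, where 2.06% fell. The 1 was Ifit3b, with a log2 change of 3.05 (SE of 0.73, edgeR adjusted p = 0.0389), which was lost in 5 of the 6 fits that left out 1 library (adjusted p 0.0578 to 0.148). The median over members was 0.03. Ifi27 was the 1 member with all vehicle libraries below all control libraries (11.5% of all genes), with a log2 change of -1.19 (SE of 0.40, edgeR adjusted p = 0.114). All other members but Cmpk2, Herc6 and Ifit3b, which were higher in all vehicle libraries (11.2% of all genes), overlapped between the 2 groups.

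The knockout and AzadC effects were compared directly as the knockout-minus-control change less the AzadC-minus-vehicle change. Of the 38 members 1 was lower in this difference, where 2.2% of all genes were, and 0 were higher, also against 2.2%. The 1 was Ifi35, a partner of the NMI protein, which was at 6.20, 4.21 and 5.59 CPM in the control, 3.47, 3.29 and 3.20 in the knockout, 4.88, 1.83 and 2.38 in the vehicle and 6.38, 5.14 and 5.84 under AzadC. It was below every control library in the knockout and above every vehicle library under AzadC. The 2 effects were -0.68 (SE 0.30) and 0.96 (SE 0.30) on the log2 scale, neither past the threshold, and their difference was -1.64 (SE 0.43, edgeR adjusted p = 0.0474). In 11 of the 12 fits that left out 1 library the call was lost (adjusted p 0.0539 to 0.109). The difference was below 0 for 33 members, against 49.5% of all genes, with a median of -0.77.

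Upstream of the members, the interferon genes themselves were all but undetected. Of 21 ligand genes 16 were at 0 in all 12 libraries, which allows up to 3 counts in all, or 0.0112 CPM, for counting error only. The 21 together had 15 counts in the 12 libraries, most of them of Ifnz, and 0 passed the filter; Ifnb1 had 2 counts, both in control 2.

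Among the 11 receptor, kinase and STAT genes, all tested, 1 rose in the knockout against the control and 1 fell, close to the 7.83% and 6.43% of all genes that did so (which apply to the next lists too), and 0 passed in AzadC against the vehicle. Il10rb, a receptor chain shared with interleukins, rose by 0.47 on the log2 scale (SE 0.13, edgeR adjusted p = 0.0318), and the kinase gene Jak2 had a log2 change of -0.62 (SE of 0.13, edgeR adjusted p = 0.00757). Jak2 was also lower in the vehicle than in the control, by a log2 change of -0.53 (edgeR adjusted p = 0.0454), and did not pass in the knockout against the vehicle (-0.09, edgeR adjusted p = 0.733). Il10rb rose against the vehicle too, with Ifnar2, and 0 of the 11 fell.

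Of the 8 interferon regulatory factors 2 rose in the knockout against the control, Irf8 (log2 change 2.02, SE 0.27, edgeR adjusted p = 0.000311) and Irf5 (1.50, SE 0.43, edgeR adjusted p = 0.0321), both transcription factors of myeloid cells. Irf7, which amplifies type I interferon, had 0.73 (SE 0.67, edgeR adjusted p = 0.538), and vehicle 1 was again the highest of its group, at 4.64 CPM against 0.514 and 1.17. Against the vehicle Irf8 alone rose in the knockout, and under AzadC 0 of the 8 passed.

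Of 20 nucleic acid sensors and adaptors, 3 rose in the knockout against the control and 1 fell. The endosomal receptors Tlr7 and Tlr9 had log2 changes of 1.93 (SE 0.39, edgeR adjusted p = 0.00528) and 2.06 (SE 0.48, edgeR adjusted p = 0.0116), and Samhd1, which hydrolyses nucleotides, 0.26 (SE 0.08, edgeR adjusted p = 0.0349). Ifih1, which encodes the cytosolic sensor of long double-stranded RNA, fell. It was at 7.48, 12.1 and 5.87 CPM in the control, 4.61, 3.88 and 4.50 in the knockout, 10.5, 8.09 and 6.53 in the vehicle and 11.8, 9.68 and 15.2 under AzadC. The knockout libraries were below the other 9. From the control the log2 change was -0.97 (SE 0.27, edgeR adjusted p = 0.0279), and the difference from the AzadC effect was -1.54 (SE 0.37, edgeR adjusted p = 0.0359). Against the vehicle Tlr7 rose and Ifih1 fell in the knockout, and Tlr9 and Samhd1 did not pass (edgeR adjusted p = 0.12 and 0.47). In AzadC against the vehicle 0 sensors passed.

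Of 10 negative regulators 2 rose in the knockout against the control, Tnfaip3 (log2 change 0.92, SE 0.15, edgeR adjusted p = 0.0014) and Ptpn6 (0.80, SE 0.22, edgeR adjusted p = 0.0258). Against the vehicle Tnfaip3 alone rose. Socs1, an inhibitor induced by interferon, had -0.26 (SE 0.30, edgeR adjusted p = 0.634). In a wider list of 55 other interferon-induced genes, 54 of them in the tables and 50 tested, 7 rose in the knockout against the control and 3 fell, with a median log2 change of 0.29, where 7.83% and 6.43% of all genes did; against the vehicle 6 rose and 2 fell, where 6.7% and 4.13% did. B2m, the light chain of class I antigen presentation, rose by 0.54 on the log2 scale (SE 0.08, edgeR adjusted p = 0.000839), and Lgals9 and the immunoproteasome gene Psmb8 rose by 1.46 (SE 0.30, edgeR adjusted p = 0.00606) and 1.44 (SE 0.35, edgeR adjusted p = 0.0141). Those that fell were Trim12a, Psme2 and Trim12c. In AzadC against the vehicle 0 of the 50 passed, with a median log2 change of 0.76.

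Macrophage markers moved with the knockout. Of 20 markers, 19 were tested and 17 rose in the knockout against the control and 17 against the vehicle, with 0 lower; their summed CPM was 96.0 to 136 in the control, 123 to 152 in the vehicle and 423 to 458 in the knockout, without overlap. Under AzadC the sum was 195 to 211, above every control and vehicle library and below every knockout library, with 0 markers past the threshold against the vehicle (median log2 change 0.55). Against the control, the baseline from which 8 members rose under AzadC, 6 of the markers rose as well (Lyz2, Fcgr3, Csf1r, Adgre1, Tyrobp and Cx3cr1). Csf1r, the receptor of the macrophage growth factor, was at 16.0 to 20.7 CPM in the control, 86.4 to 101 in the knockout, 22.7 to 31.7 in the vehicle and 33.4 to 41.4 under AzadC. Of 18 markers of lymphoid, dendritic and neutrophil cells 7 were tested and 0 passed in the knockout against the control; Cd3e and Ms4a1 were at 0 in all libraries, and the summed CPM was 12.7 to 14.2 in the control and 14.5 to 16.6 in the knockout. Of 10 skeletal muscle markers 8 rose in the knockout against the control and 0 passed against the vehicle. Of 12 palatal mesenchyme markers Foxf2, Pdgfra, Twist1 and Meox2 fell against the control, and the first 3 of these also fell against the vehicle. In whole shelves, more cells of a type and more RNA per cell cannot be told apart. The part of these markers in the members' changes was not tested.

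**Figure D4:**
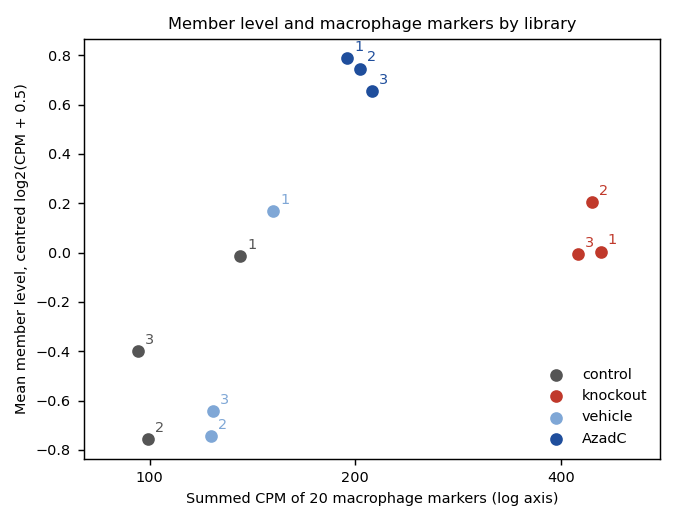
Mean member level (vertical axis, centred log2(CPM + 0.5)) against the summed CPM of 20 macrophage markers (horizontal log axis) in each library, with the replicate number beside each point. Knockout libraries are farthest right, at 423 to 458 CPM, while AzadC libraries are highest, at 0.66 to 0.79, and control 1 and vehicle 1 lie above and to the right of the other libraries of their groups.

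The 3 members that did not pass the filter were read at a few counts each. Oas3 had 3 counts over the control libraries, 14 over the knockout, 2 over the vehicle and 14 under AzadC. Cxcl10, a chemokine, had 6, 18, 7 and 11, and Ccl5, another chemokine, had 2 counts in knockout 2 and 0 in the other 11 libraries. No fold is given for these 3 genes.

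**Figure D5:**
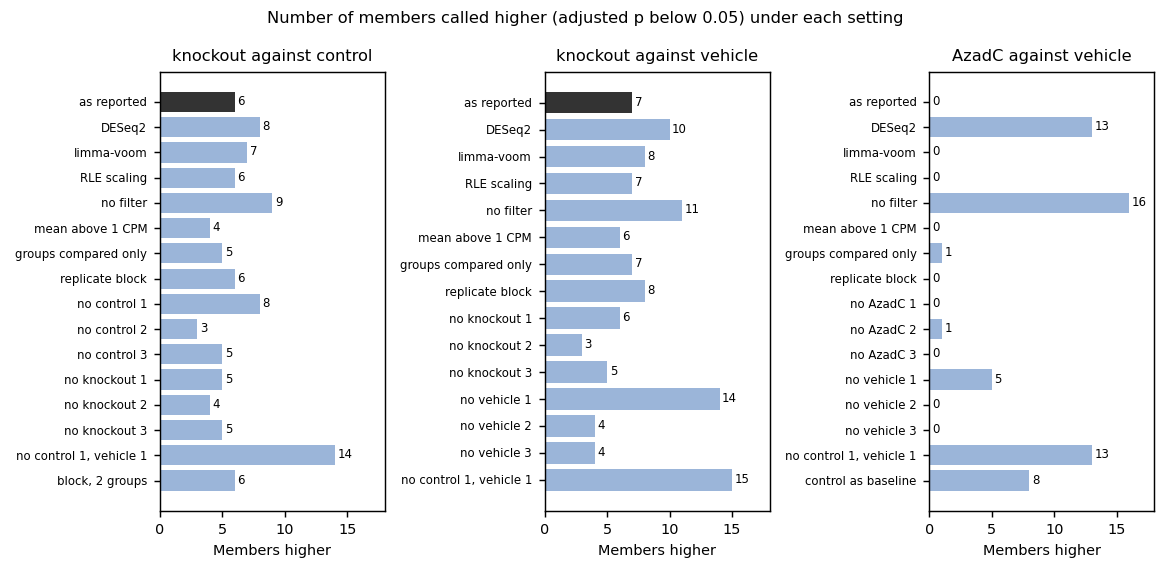
Number of members called higher (bars, with the number at the end) in the knockout against the control, the knockout against the vehicle and AzadC against the vehicle, as reported and under each other setting or with 1 or 2 libraries left out. The knockout counts stay between 3 and 15, while the AzadC count moves between 0 and 16.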

How the data were processed

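The deposited values were expected counts and TPM per gene, made by the authors with STAR 2.7.0 and RSEM 1.3.1 on mm10; this is per the submitters' processing notes, and the columns are per the file headers. RSEM divides reads that fit several genes, so expected counts need not be whole; the strand setting is not given in the sources used here. TPM, deposited by the authors, was used only to compare levels between genes. Rounded expected counts were fitted with edgeR 4.0.16 (R 4.3.3): filterByExpr by group, TMM scaling (factors 0.985 to 1.01), 1 mean per group over 12 libraries, glmQLFit and glmQLFTest. A gene passed at p below 0.05 after Benjamini-Hochberg adjustment over the 17335 genes tested. An SE is the size of the log2 change over the root of the F statistic. The fit was tested on simulated data. Alternatives were DESeq2 1.42.0, limma-voom 3.58.1, RLE scaling, other filters, only the groups compared, a replicate block and leaving out libraries.

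The members and lists were chosen with earlier results of these data known. All 41 members are accounted for; values in every library are given for those past the threshold in the knockout or AzadC comparisons, and at most 4 genes of each other list by smallest adjusted p, with a few others chosen after their values were seen. Same-numbered control and knockout libraries had correlated deviations (0.42, 0.14 and 0.34). For the other pairs of groups the correlations ran from -0.27 to 0.25, with 0.04, 0.14 and 0.18 for control and vehicle. A library correlated best with its own number in 14 of 36 combinations of a library and another group. The numbers were taken to pair knockout with control only, which these values do not establish, and the labels do not say what a number marks. No replicate pair agreed within sampling noise (chi-square per degree of freedom 6.53 to 19.7). Intervals and floors cover counting error only. Coordinates are from GENCODE M21 and promoters from RefSeq, both of mm10 (GRCm38). The result of 1 gene is not reported here.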

Additional observations from a re-analysis of the deposited data

Results flagged for a closer look

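Ifi35 is the 1 member whose knockout and AzadC effects differed by the test of the difference itself. The log2 difference was -1.64 (edgeR adjusted p = 0.0474), with the knockout libraries below all control libraries and the AzadC libraries above all vehicle libraries. The call was lost in 11 of the 12 fits that left out 1 library. Groups of 3 are too small for a test of single outlying libraries.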

How the results depend on the processing

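The counts of members called were 6 higher for the knockout against the control, 7 for the knockout against the vehicle, 0 for AzadC against the vehicle, 1 for the vehicle against the control, and 1 lower for the difference of effects; all other counts were 0. Leaving out 1 library gave 3 to 8 and 3 to 14 higher in the 2 knockout comparisons. Against the vehicle 0 to 1 were lower, and under AzadC 0 to 5 were higher. For the vehicle it gave 0 to 1 higher and 0 to 2 lower, and for the difference 0 to 1 higher and 0 to 6 lower. Over all genes these fits called 4.52% to 7.05% higher in the knockout against the control. Against the vehicle they called 4% to 5.73% higher and 1.64% to 3.53% lower. Under AzadC 0% to 0.0892% were higher. For the vehicle 0.256% to 1.16% were higher and 0.48% to 2.04% lower. For the difference 0.939% to 2.48% were higher and 0.895% to 2.55% lower. Control 1 and vehicle 1 were also left out together, chosen for their high member levels. Then 14 members were higher in the knockout against the control (6.87% of all genes) and 15 against the vehicle (5.64%). Under AzadC 13 were higher (0.186%) in this fit. For the vehicle 0 were higher (0.225%) and 1 lower (0.647%), and for the difference 5 were lower (1.57%). DESeq2 gave 13 higher under AzadC (0.44% of all genes), 1 lower for the vehicle (4.72%) and 4 lower for the difference (3.94%). By limma-voom there was 1 lower for the vehicle (2.18%) and 4 lower for the difference (2.35%). With no filter there were 11 higher in the knockout against the vehicle (4.93% of all genes) and 16 under AzadC (0.33%). In that setting 2 were lower for the vehicle (2.5%) and 8 for the difference (2.37%). With only the groups compared there was 1 higher under AzadC (0.0124% of all genes), and 0 higher (0.864%) and 1 lower (1.72%) for the vehicle. A mean above 1 CPM and the replicate block each left 0 higher for the vehicle (1.81% and 1.08% of all genes). With the control as baseline AzadC had 8 higher (0.883% of all genes). The replicate block moved no other count by over 1.5 times. The numbers were taken to pair only knockout with control, where it gave 6. DESeq2 and the fit with no filter took in all 41 members, and the other fits 32 to 39. The counts are therefore not of equal sets. The cause of these shifts was not tested. Under the alternatives, 0 of 36 single-gene results changed direction. These results were picked by their p-values or after their values were seen, so a change of direction was unlikely from the start. Of 528 single-gene alternatives 426 kept the outcome of the main fit, 50 lost a call and 52 gained one. Low counts limit Gbp2, Ifit3b, Ifi27l2a, Oas1g and the 3 untested members.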
